A study of Mus musculus with 47 samples.

Results

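Astrocyte genes were read in columns of every brain region sampled here, and 10 of them are described across all 47 columns of the deposited count table: Apoe, Aldoc, Slc1a2, Slc1a3, Gja1, Clu, Cst3, Glul, Mt1 and Mt2. They were chosen by name, as 10 of the 22800 gene symbols in the table. The columns were then sorted by the genes that make and load GABA, and not by the astrocyte genes. A set of 14 of the 47 columns had 0 reads on Gad1, Gad2 and Slc32a1. It was compared with 10 columns of the auditory cortex (AC) and 13 columns of CA3 that carry GABAergic transcripts, leaving 10 columns outside these sets. One of these, N4X, was nearly identical to the AC column N4 and was counted with it as 1 where columns were ranked together, which left 46 distinct columns.

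Each column is the RNA of 1 cell, whose cytosol was drawn into the patch pipette in a slice and amplified. The labels give 20 NPY-positive columns of AC, 21 of CA3, 3 of CA1 and 2 of the dentate gyrus (DG), and 1 NPY-negative column of CA3. All came from mice, 3 to 8 weeks old and of both sexes, that carried a green fluorescent reporter for neuropeptide Y, named NPY-hrGFP in the methods and NPY-EGFP in the series text. The reporter is driven by the Npy promoter, so it marks cells in which that promoter is or was active. A total of 8 mice is given and no mouse is named for a column, so each set of columns counts as 1 sample, no test was made, and SDs over columns describe the spread of columns only.

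Astrocytes clear glutamate from the synapse with the transporters encoded by Slc1a2 (GLT-1) and Slc1a3 (GLAST), and glutamine synthetase, encoded by Glul, turns it into glutamine. They are joined into networks by gap junctions of connexin 43, the product of Gja1, and release the lipid carriers apolipoprotein E (Apoe) and clusterin (Clu). Aldoc encodes a brain form of the glycolytic enzyme aldolase, Cst3 the secreted protease inhibitor cystatin C, and Mt1 and Mt2 encode metallothioneins, small proteins that bind zinc and copper. Several of these genes are also known from other brain cells: Cst3 and Apoe from microglia, Glul from oligodendrocytes, and Clu and Cst3 from neurons.

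The 10 genes lie on 8 chromosomes of GRCm38, and only Mt1 and Mt2 are neighbours. In the GENCODE vM21 annotation Mt2 spans chr8:94172664-94173568 and Mt1 spans chr8:94179082-94180327, both on the plus strand. Apoe lies at chr7:19696109-19699188 (minus), Aldoc at chr11:78322968-78327781 (plus), Slc1a2 at chr2:102658659-102790784 (plus) and Slc1a3 at chr15:8634124-8710764 (minus). Gja1 lies at chr10:56377330-56402513 (plus), Clu at chr14:65968483-65981547 (plus), Cst3 at chr2:148871722-148875692 (minus) and Glul at chr1:153899944-153909723 (plus). Reads were counted per gene. In the table Glul overlaps a gene on the other strand, Teddm2, and whether the counting used strand is not given in the sources used here, so reads of these 2 genes cannot be told apart with certainty.

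The promoters of the metallothionein genes are shown because these neighbours are the pair of members that can be read against a known sequence element. Metallothionein genes are known to be switched on by metal through the factor MTF-1, which binds short elements with the core TGCACNC or TGCGCNC. The 250 bases before the RefSeq start of each gene (GRCm38.p6, plus strand, 5′ to 3′) were searched for both cores on both strands, and matches are in capitals, as GNGTGCA or GNGCGCA where the match is on the other strand.
Mt1, chr8:94178839-94179088: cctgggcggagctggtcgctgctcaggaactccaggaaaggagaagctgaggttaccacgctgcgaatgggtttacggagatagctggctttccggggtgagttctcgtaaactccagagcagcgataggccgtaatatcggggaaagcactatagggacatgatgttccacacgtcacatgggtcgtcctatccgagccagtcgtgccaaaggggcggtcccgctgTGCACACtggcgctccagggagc
Mt2, chr8:94172368-94172617: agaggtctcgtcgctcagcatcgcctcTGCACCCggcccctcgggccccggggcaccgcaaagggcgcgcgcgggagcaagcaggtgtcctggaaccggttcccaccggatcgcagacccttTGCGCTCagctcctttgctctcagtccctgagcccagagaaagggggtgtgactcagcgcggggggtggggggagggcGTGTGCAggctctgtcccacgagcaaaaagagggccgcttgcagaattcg

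The Mt1 window held 1 match and the Mt2 window held 3. The Mt1 window ends at 94179088, inside the GENCODE gene (from 94179082), and the Mt2 window ends at 94172617, before it (from 94172664). Bases beyond these ends were not searched, so the numbers are of the windows and not of whole promoters. Of 32851 promoter windows of this length in the RefSeq table, 21.4% held at least 1 match and 1.26% held at least 3. Of the other members, Glul had 1 match, and Apoe, Aldoc, Slc1a2, Slc1a3, Gja1 and Cst3 had none in the windows listed for them. A match is a run of letters and not a measured binding site.

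The 14 columns without Gad1, Gad2 and Slc32a1 reads were spread over the labels: 4 of 20 in AC (N10, N49, N50, N52), 7 of 21 NPY-positive columns of CA3 (N13, N14, N15, N17, N18, N22, N23), both DG columns (N11, N12), the NPY-negative column of CA3 (N16) and 0 of 3 in CA1. None of the 14 had a read on Npy either, although 13 of them are labelled NPY-positive, so the label was not borne out by the transcript. All 23 AC and CA3 neuron columns had Gad1, Gad2 and Npy reads, with Gad1 at 740 CPM (counts per 1000000 reads on genes) or more. The 14 columns held 40934 to 595759 reads on genes, and the 23 neuron columns held 1715012 to 7949918, so the sets do not overlap in depth. A limit of 3 reads, which a count of 0 allows, corresponds to 5.04 to 73.3 CPM in the 14 columns, below the lowest Gad1 level of the neuron columns. Thinned to 40000 reads, all 23 neuron columns kept reads on Gad1 and Gad2, and the lowest sum over the 3 genes was 76 reads. Slc32a1 was then left in 1 of 10 AC and 7 of 13 CA3 neurons. The columns nearest to the limit of 0 reads were N9, with 2 reads on Gad1, and N48, with 6 on Gad2. Depth and the kind of cell cannot be told apart in what follows.

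In 6 of the 14 columns the 10 genes together took up a large share of all reads: 16.5% in N22, 12.3% in N13, 11.4% in N17, 11.1% in N10, 10.7% in N12 and 9.11% in N11. These columns carry 3 different region labels, CA3, AC and DG. The next highest were N23 with 1.01%, N14 with 0.648% and N18 with 0.550%. The 5 remaining columns, N16, N50, N15, N49 and N52, held 0.122% or less, and N52 had no read on any of the 10 genes. In the AC neurons the summed level ran from 969 to 14887 CPM with a median of 2019, and in the CA3 neurons from 684 to 5544 CPM with a median of 1554. The 6 columns, at 91056 to 164918 CPM, therefore lay above all 23 neuron columns, while 5 of the 14 lay below the AC median (the heat map of all columns). These are values of single columns, and the 6 columns were not averaged as a group.

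**Figure D1:**
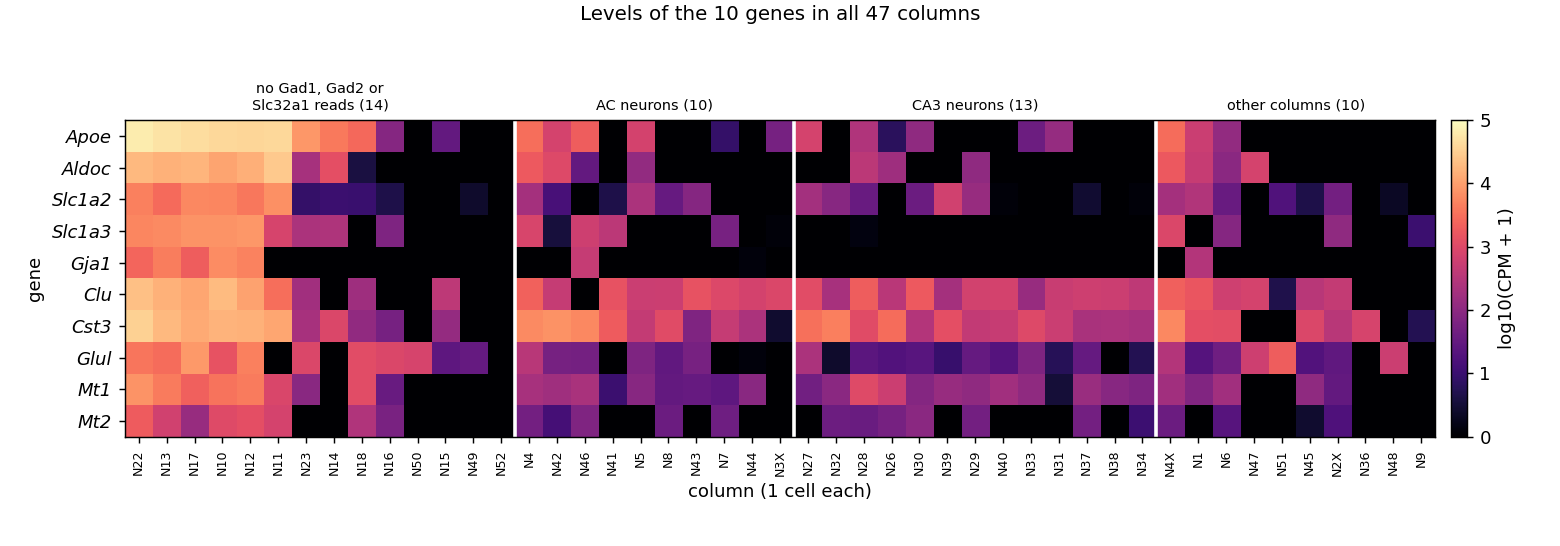
Level of each of the 10 genes (rows) in each of the 47 columns (1 cell each), as log10(CPM + 1) on the colour scale, with columns ordered within each set by the summed level of the 10 genes. The first 6 columns, N22 to N11, are bright for nearly all 10 genes, N52 is at 0 for all, and in the neuron columns Clu, Cst3 and Mt1 form nearly unbroken bands while Gja1 is almost empty.

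Of the lipid carrier genes, Apoe had the highest CPM of the 10 members in each of these columns, while Clu lay below Cst3 in all of them but N10. Divided by exon length, Clu lay below Cst3 in N10 as well (5584 and 12965 CPM per kb). Apoe reached 64331 CPM in N22, 52260 in N13, 45729 in N17, 39262 in N11, 39073 in N10 and 38096 in N12. The next columns of the table were N23 with 8216 CPM, N14 with 4064, the AC neuron N4 with 3082 and N18 with 2702. Clu was at 22467 CPM in N22, 19191 in N10, 15751 in N13, 12042 in N17, 10899 in N12 and 3057 in N11. Outside these 6 columns it did not exceed 389 CPM (N15) among the 14, which is below the median of either neuron set.

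The glutamate transporters and the synthetase did not follow one another in every column. Slc1a2 lay between 2803 CPM (N13) and 6820 CPM (N11) in the 6 columns and at 8.93 CPM or less in the other 8. Slc1a3 lay between 5579 and 8196 CPM in 5 of them but at 795 CPM in N11, and it was also read in N14 (259 CPM), N23 (233 CPM) and N16 (65.1 CPM), where Slc1a2 was nearly absent. Glul was read in 11 of the 14 columns: it was highest in N17 (8772 CPM) and N12 (4833 CPM), stood at 0 in N11, and reached 1120 CPM in N18, 923 in N23, 922 in N16 and 809 in N50. In N50 it was the only member with a read, and its opposite-strand neighbour Teddm2 was read in 10 of the 14 columns.

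Gja1 had the narrowest pattern of the 10. It was read in 5 of the 14 columns, at 6215 CPM in N10, 4990 in N12, 4411 in N13, 2445 in N22 and 1930 in N17, and at 0 in the other 9, N11 included. In N11 the limit of 3 reads corresponds to 33.6 CPM, which is below the lowest of these 5 levels.

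Aldoc and Cst3 were high in all 6 columns. Aldoc lay between 11072 CPM (N10) and 27616 CPM (N11), and Cst3 between 11870 CPM (N11) and 33161 CPM (N22). Beyond them Aldoc fell to 1224 CPM in N14 and 201 in N23, and Cst3 to 929 CPM in N14 and 215 in N23. Mt1 ran from 873 CPM (N11) to 7566 CPM (N22) and Mt2 from 136 CPM (N17) to 1889 CPM (N22) in the 6 columns. N18, which was low in most members, had 1125 CPM of Mt1 and 266 CPM of Mt2.

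Since gene length adds to the reads of a gene, levels were compared between genes per kilobase of exon. For this the exons of all annotated transcripts were merged, a length that can exceed that of the main transcript. The merged length was 1246 bases for Mt1 and 588 for Mt2. Over the 14 columns the mean level was 9817 CPM per kb for Apoe, 6172 for Cst3, 2317 for Aldoc, 1749 for Clu and 1371 for Mt1. It was 736 CPM per kb for Mt2, 550 for Glul, 303 for Slc1a3, 161 for Slc1a2 and 139 for Gja1. The SD over columns was larger than the mean for each of the 10 genes (11162 CPM per kb for Apoe), so no 2 neighbours in this order differed beyond their spread. In the AC neurons Cst3 came first with 1840 CPM per kb, ahead of Apoe (305) and Clu (271). The mean of Apoe rests on few columns, N4 (3082 CPM) and N46 (1915 CPM) above all, and its median was 13.9 CPM per kb against 237 for Clu. In the CA3 neurons Cst3 (1004) was followed by Clu (210) and Mt1 (165).

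The other markers of these columns were read from lists of genes for each cell type. Of 30 further astrocyte genes in the table, 29 had a read in N22 and N13, 27 in N12, 24 in N10, 19 in N17 and 15 in N11, with summed levels from 42398 CPM (N11) to 88853 CPM (N12). Aqp4, the water channel of astrocyte endfeet, was at 4913 CPM in N17, 1896 in N22, 1663 in N12, 1590 in N13 and 933 in N10 but at 0 in N11, and apart from 24.4 CPM in N52 it was not read in the rest of the 14. Gjb6, which encodes connexin 30, was at 0 in all 23 neuron columns. N11 and N17 had reads on 647 and 633 genes and 12.2% and 11.5% of reads on the mitochondrial genome, the other 4 of the 6 columns on 2367 to 3487 genes. N11 also held 37213 CPM of Mbp, a myelin protein gene, so its marker profile is mixed.

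The remaining 8 columns showed other markers. All 12 oligodendrocyte genes were read in N16, N18 and N23, where Mbp was at 26098, 17773 and 12480 CPM. These are the columns in which Glul lay between 922 and 1120 CPM with little Slc1a2. Of 8 genes for oligodendrocyte precursors, 6 were read in N14 (10048 CPM) and 7 in N15 (8682 CPM), but both columns were mixed. N14 also had reads on 16 of the 30 further astrocyte genes, at 11826 CPM, and N15 on 6 oligodendrocyte genes, at 28707 CPM, and 11 astrocyte genes, at 7481 CPM. N49, N50 and N52 stood apart by the ribosomal RNA repeat Rn18s-rs5, which took 14.6%, 24.4% and 53.9% of their reads, against 2.18% to 4.44% in the other 11. N49 held 34057 CPM on 4 genes of the neuron list, and the whole list of 10822 CPM for oligodendrocyte precursors in N52 came from Pdgfra. Microglia genes reached 380 CPM at most in the 14 columns (N10).

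**Figure D2:**
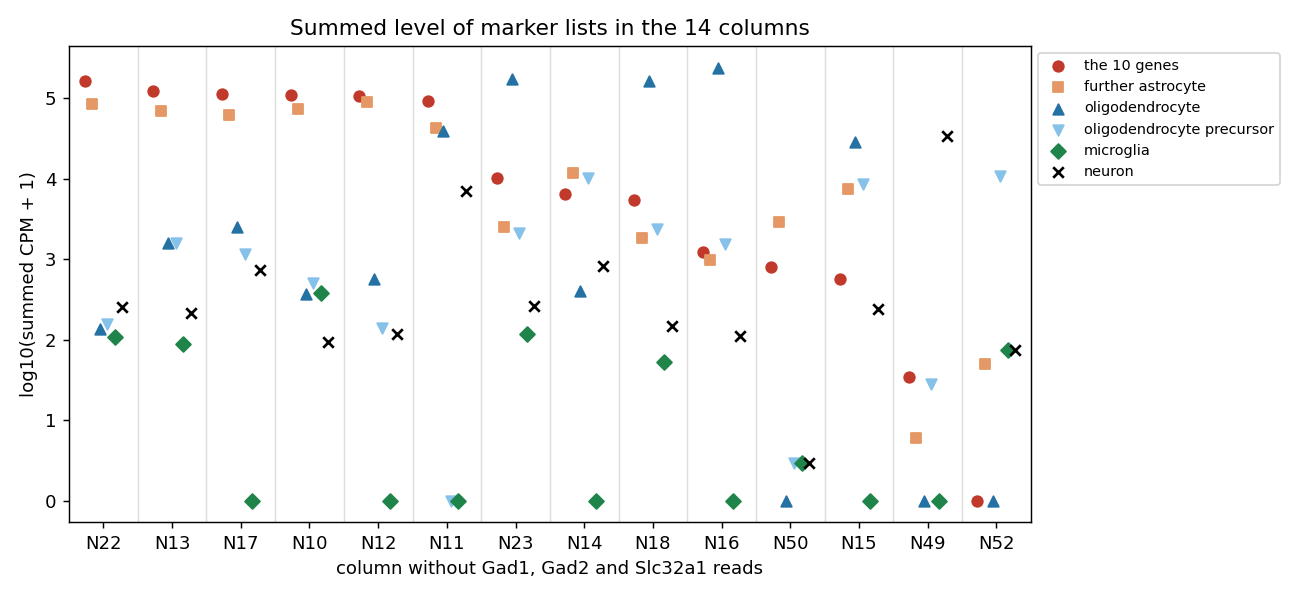
Summed level of the 10 genes and of 5 marker lists in each of the 14 columns without Gad1, Gad2 and Slc32a1 reads, as log10(summed CPM + 1), 1 symbol per list. In N22, N13, N17, N10 and N12 both astrocyte lists lie far above the rest, in N11 the oligodendrocyte list comes near them, in N23, N18 and N16 the oligodendrocyte list is highest, and in N49 the neuron list.

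For the whole set of 14, the mean level was compared with that of each neuron set as a difference of mean log2(CPM + 1). A difference of at least 1 is spoken of as higher or lower. Against the AC neurons 8 of the 10 genes were higher, Clu was lower and Cst3 neither. The background is the share of all genes that were higher, which was 9.7% of 3011 genes with a read in at least 10 columns, and 65.4% were lower, with a median difference of -1.76. The median over the 10 members was 3.07. Against the CA3 neurons 7 members were higher, Clu was lower, and Cst3 and Mt1 were neither, with a median of 3.33. There, 4.58% of 5149 genes were higher and 77.6% were lower, with a median of -2.56. Of the 10 members 9 passed the filter on low counts in each comparison, and Gja1 did not. Without the filter 9.84% of all genes were higher and 37.9% lower against AC, and 7.08% higher and 45.4% lower against CA3.

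The differences rest on few columns. Apoe was higher by 5.01 than in the AC neurons and by 7.004 than in the CA3 neurons, but its level over the 14 columns was 10.04 ± 6.41 (SD of log2(CPM + 1)), with 8 columns above all AC neurons and 3 at 0. For Aldoc the differences were 4.17 and 5.69, for Glul 4.06 and 3.80, for Gja1 3.30 and 4.23. The transporter gene Slc1a2 was higher by 2.88 and 2.87, and Slc1a3 by 3.26 against AC and 6.77 against CA3. The SD over the 14 columns, 4.74 to 6.66 over the 10 members, was larger than the difference except for Apoe and Slc1a3 against CA3. In most of the genes the 14 values lay either high or at and near 0 and not around the mean (the plot by set of columns). Summed over the columns of a set, Apoe had 17119 CPM in the 14 columns (exact Poisson 95% interval 16988 to 17251), 469 in the AC neurons (462 to 477) and 71.7 in the CA3 neurons (69.3 to 74.1). A single column held 30.2% of these reads in the 14 columns (N22), 38.9% in the AC neurons (N46) and 55.1% in the CA3 neurons (N27). Apoe was read in 11 of the 14 columns (exact Clopper-Pearson 95% interval 49.2 to 95.3%). The Poisson intervals cover counting error only, since the reads are of amplified cDNA without molecular identifiers. The Clopper-Pearson interval takes columns as independent draws, which is not known here, since no mouse is named for a column.

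Cst3 and Clu, the members most strongly read in neurons, were split among the 14 columns as well. Clu differed by -1.38 from the AC neurons and by -1.60 from the CA3 neurons, yet its mean CPM was 6.46 and 8.33 times higher, and the sign turned when reads were summed over columns (2.66 and 3.14) or when N49, N50 and N52 were left out (0.66 and 0.43). Of the 14 columns 6 lay above all neurons of both sets and 8 below the median of each. Relative to the median of all genes, the difference of Clu was 0.38 against AC and 0.95 against CA3. Cst3 differed by -0.54 and -0.88, also with 6 columns above all neurons, and its sign turned with summed reads (1.60 and 2.58) and without N49, N50 and N52 (1.83 and 1.49). Against AC it also turned without any 1 of these 3 columns, in which it was at 0 (0.13). Mt1 differed by 1.13 from the AC neurons, a difference that fell below 1 with TMM factors (0.78), with DESeq2 size factors (0.43) and without the AC neuron N3X (0.53). Against CA3 it differed by -0.18, which turned to 3.21 with summed reads and to 1.60 without N49, N50 and N52. Mt2 differed by 2.46 and 2.21.

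The comparison with AC turned when it was kept to that region. With only the 4 AC columns among the 14, of which N10 alone was rich in astrocyte genes, 2 of 10 members were higher than in the AC neurons and the median over members was -0.23. The other 3 are N49, N50 and N52, of the 14 those richest in ribosomal repeat reads, so region and library cannot be told apart here, and without these 3 columns the median over members against AC was 4.44. With only the 4 AC columns, these 3 included, the difference was -1.22 for Apoe, -0.34 for Slc1a3, -2.45 for Mt1 and -0.12 for Mt2. With only the 7 NPY-positive CA3 columns among the 14, 8 members were higher than in the CA3 neurons, with a median of 4.02, and the difference of Clu turned to 0.27.

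**Figure D3:**
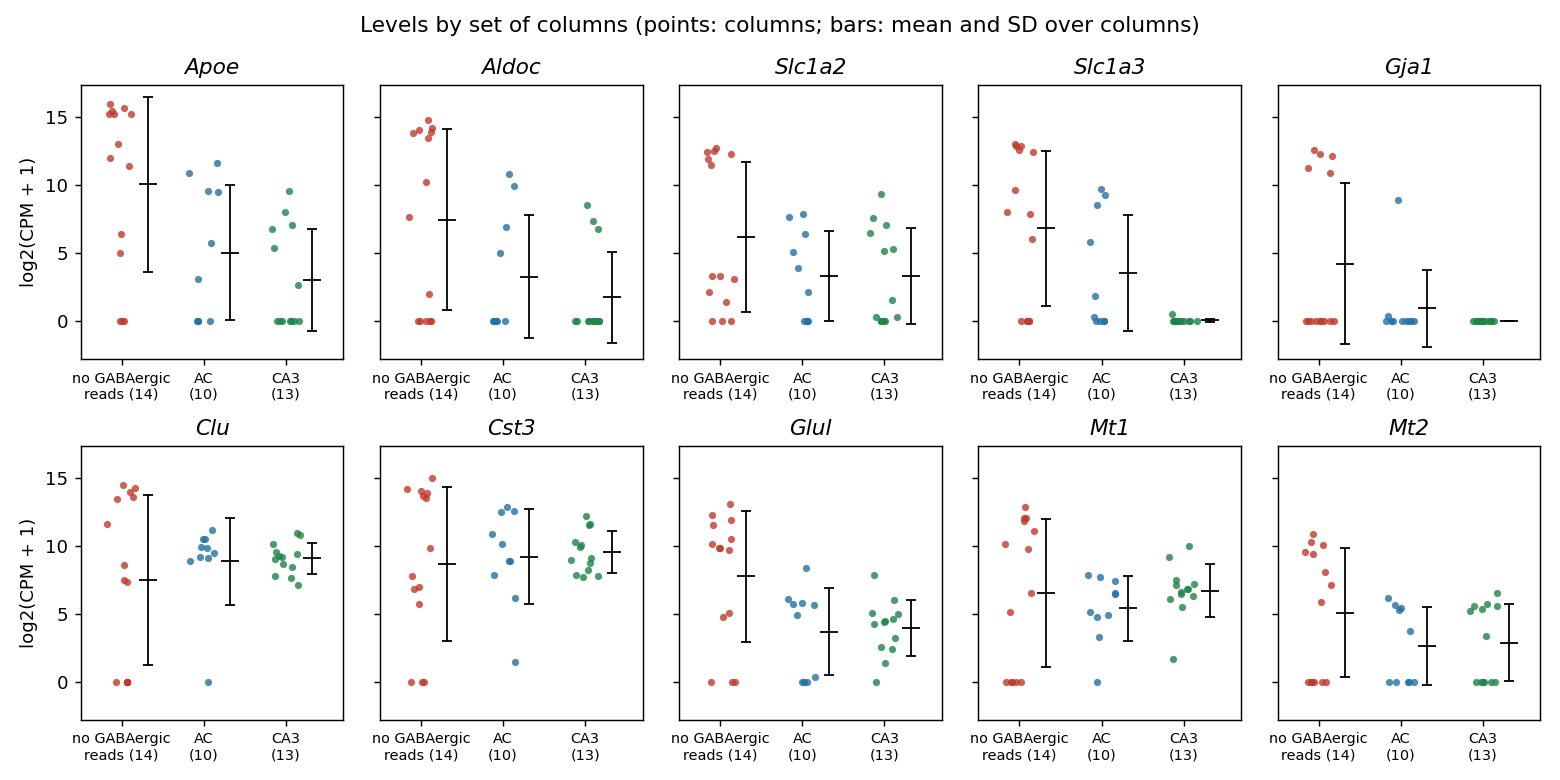
Level of each gene as log2(CPM + 1) in the 14 columns without Gad1, Gad2 and Slc32a1 reads, the 10 AC and the 13 CA3 neuron columns; points are columns, and the bar is the mean with the SD over columns. The 14 columns split into a high cluster and values at or near 0 in most panels, Slc1a3 and Gja1 are at or near 0 in all CA3 neurons, and Clu and Cst3 are read in all CA3 neurons.

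Several of the 10 genes were also read in the neuron columns, although reads there do not tell which cell they came from. Cst3 was read in all 10 AC neurons, from 1.73 CPM (N3X) over a median of 790 to 7237 CPM (N42), and in all 13 CA3 neurons, from 205 over 552 to 4690 CPM (N32). Clu was read in 9 of 10 AC neurons, with a median of 814 and a highest value of 2242 CPM (N4), and in 13 of 13 CA3 neurons from 138 over 579 to 1985 CPM (N28). Mt1 was read in 9 of 10 AC neurons with a median of 59.5 and up to 224 CPM, and in 13 of 13 CA3 neurons from 2.23 over 110 to 1034 CPM. For these 3 genes the lowest CA3 neuron was above 0, and the AC set had 1 neuron at 0 for Clu (N46) and for Mt1 (N3X).

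The next genes were read in part of the neurons. Glul was read in 7 of 10 AC neurons and 12 of 13 CA3 neurons, but its medians were 39.8 and 20.0 CPM, and thinned to 40000 reads it was left in 4 and 6. At that depth 1 read is 25 CPM, so such levels could have been missed in the shallowest of the 14 columns. Apoe was read in 6 of 10 AC neurons, with a median of 29.7 and up to 3082 CPM (N4), and in 6 of 13 CA3 neurons, with a median of 0 and up to 771 CPM (N27). Slc1a2 was read in 6 AC neurons, up to 234 CPM (N5), and in 9 CA3 neurons, of which N39 with 660 CPM held 79.1% of the reads of that set. Mt2 was read in 5 AC neurons, up to 70.2 CPM, and in 7 CA3 neurons, up to 93.3 CPM.

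Aldoc, Slc1a3 and Gja1 were read in the fewest neurons. Aldoc was found in 4 AC neurons, up to 1805 CPM (N4), and in 3 CA3 neurons, up to 371 CPM (N28). Slc1a3 was found in 6 AC neurons, at 835 CPM in N4, 601 in N46 and 371 in N41, while all 13 CA3 neurons together held 1 read among 48858038. This difference between the regions was not tested, since each is 1 sample. Gja1 was at 486 CPM in the AC neuron N46 and at 0.303 CPM, 1 read, in N44. It had 0 reads in 13 CA3 neurons, where 3 reads are 0.377 to 1.35 CPM. The exact 95% interval, 0 to 24.7% of columns, takes these neurons as independent draws, which is not known.

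A gene was called widely read where at least 12 of the 23 neuron columns had 10 or more reads on it, which held for 28.3% of 13624 genes with any read. By this count 7 of the 10 members were widely read in the neuron columns: Clu and Cst3 in 22 columns, Mt1 in 21, Glul in 17, and Apoe, Slc1a2 and Mt2 in 12, which is the limit. Aldoc was read so in 7 columns, Slc1a3 in 5 and Gja1 in 1. This count depends on depth. Thinned to 40000 reads, Clu and Cst3 each kept a read in 9 AC and 13 CA3 neurons, and Mt1 in 8 and 12. Glul was left in 4 and 6, Apoe in 5 and 5, Slc1a2 in 4 and 5, and Mt2 in 3 and 6.

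Columns among the neurons that were high in several members also held other markers. N4, N42 and N46 had the highest sums of the 10 genes, 14887, 9710 and 9112 CPM. N46 and N4 also had the highest shares of Rn18s-rs5 among the 23 neuron columns, 11.6% and 8.81%, whose part in these sums was not tested. The 13 microglia genes summed to 6884 CPM in N42, 4673 in N46 and 1283 in N4, and to 0 in the AC neurons N7 and N43. Over the 23 neuron columns the Spearman correlation with this sum was 0.83 for Cst3, 0.58 for Mt1, 0.54 for Aldoc and 0.50 for Apoe, as a description over columns that differ in depth. Apoe correlated as much with the oligodendrocyte genes (0.50), and Slc1a3 most with the further astrocyte genes (0.53). Of these, N4 had reads on 17, at 4934 CPM, the highest sum among the 23 neuron columns. Cst3 was still at 478 CPM in N7 and 70.5 CPM in N43, where no microglia gene had a read. The part of other cells in the Cst3 level of neurons was not tested. Of the 13 microglia genes 11 were read in N42 and 8 in N46, with Csf1r at 2583 and 1274 CPM and Cx3cr1 at 719 and 497 CPM. Tmem119 was at 0 in all 23 neuron columns and P2ry12 in 21 of them, N42 and N46 included.

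**Figure D4:**
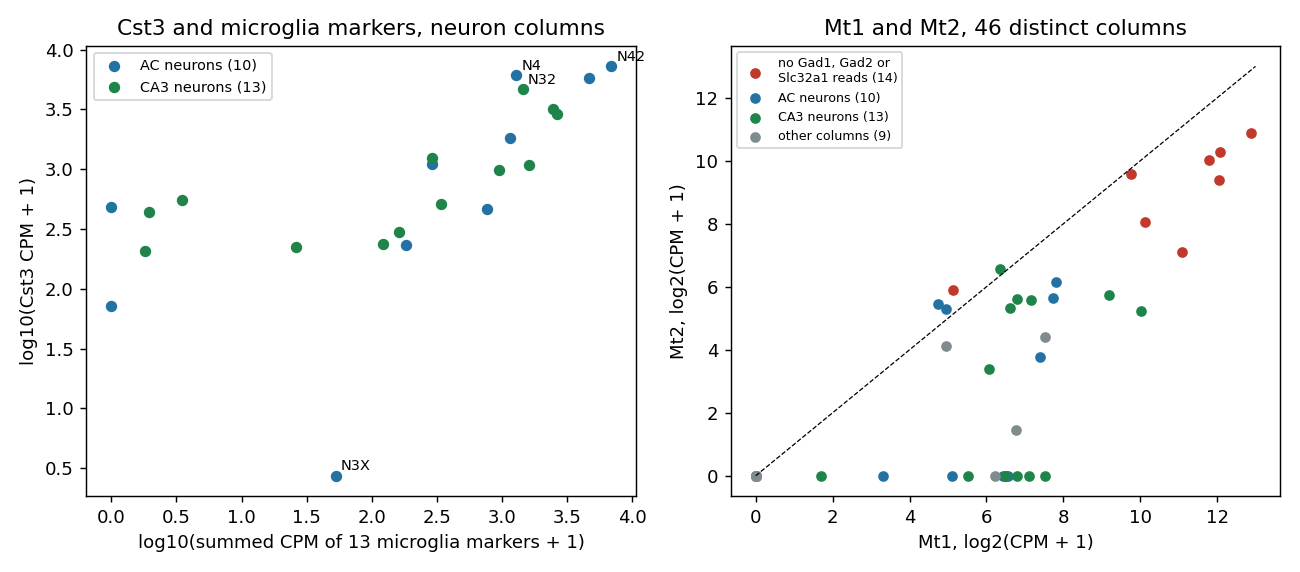
Left, Cst3 level against the summed level of 13 microglia markers in the 23 neuron columns, both as log10(CPM + 1); right, Mt1 against Mt2 as log2(CPM + 1) in 46 distinct columns, with the line of equal levels dashed. Cst3 is highest where microglia markers are highest (N42), N3X stands apart at 1.73 CPM, and on the right most points lie below the line, with 12 columns on the axis of Mt1 alone.

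The metallothionein genes, whose promoters are shown above, were mostly read together, with Mt1 as the higher. Among 46 distinct columns both had reads in 23, Mt1 alone in 12, Mt2 alone in 0 and neither in 11. Where both were read, Mt1 had 3.46 times the reads of Mt2 at the median, from 0.588 to 63.4 times, and Mt1 was the higher of the pair in 19 of these columns and Mt2 in 4. The median ratio was 3.73 in the 14 columns without Gad1, Gad2 and Slc32a1 reads, 3.20 in the AC neurons and 3.02 in the CA3 neurons. These are ratios of reads, not per length. Mtf1, which encodes the metal-sensing factor, differed by -2.84 from the AC neurons and by -2.24 from the CA3 neurons, against -1.76 and -2.56 at the median of all genes.

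Relatives of the members and the further lists gave the surroundings. Against the AC neurons, of 9 relatives Slc1a4, Gjb6 and Abca1 were higher and 4 were lower, and against the CA3 neurons Gjb6 and Abca1 were higher and 5 lower. Every relative that was lower had passed the filter on low counts, 4 of 5 and 5 of 6 of those that passed, beside 65.4% and 77.6% of all such genes. Abca1 against AC did not hold its direction, since the fold of its mean CPM was 0.622. Nor did Slc1a1 and Slc1a4 against CA3, which were lower but had folds of mean CPM of 2.33 and 1.04. Aldoa, the widely used aldolase gene, differed by -3.87 and -4.81, the reverse of Aldoc. Slc1a1, the glutamate transporter gene of neurons, differed by -4.22 and -1.83, the latter above the median of all genes (-2.56). Mt3, the brain metallothionein gene, differed by 0.15 and -0.04. Of the 30 further astrocyte genes, 22 were higher and 2 lower against AC (median 3.53), and 25 were higher and 1 lower against CA3 (median 3.55). All 12 oligodendrocyte genes were higher in both comparisons, and all 14 neuron genes were lower. Of 13 microglia genes 9 were lower in both. Of the neuron genes 12 and 14 passed the filter, so their background is 65.4% and 77.6% of genes lower. Most genes of the glial lists did not pass it, and without it 9.84% and 7.08% of all genes were higher and 37.9% and 45.4% lower.

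The genes whose levels ran most like the mean rank of the 10 members over 46 distinct columns, among 8033 genes, were Mt3 with a Spearman correlation of 0.76, mt-Co1 (0.72), mt-Nd1 (0.71), mt-Nd4 (0.71), Dbi (0.70), Prnp (0.70), Sepp1 (0.69), Ptn (0.69), mt-Cytb (0.68) and mt-Rnr2 (0.67). The members themselves correlated at 0.13 to 0.78 over their 45 pairs, with a median of 0.52. For 9 of the members the most similar gene was Ptn for Apoe (0.82), Apoe for Aldoc (0.78), Acsbg1 for Slc1a2 (0.60), Ntsr2 for Gja1 (0.68), Tspan7 for Clu (0.67), Mt3 for Cst3 (0.81) and for Mt1 (0.77), Mt1 for Mt2 (0.73) and Teddm2 for Glul (0.89). The columns share library preparation and differ strongly in depth, so these values describe the table. Teddm2 is the gene on the opposite strand of Glul.

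**Figure D5:**
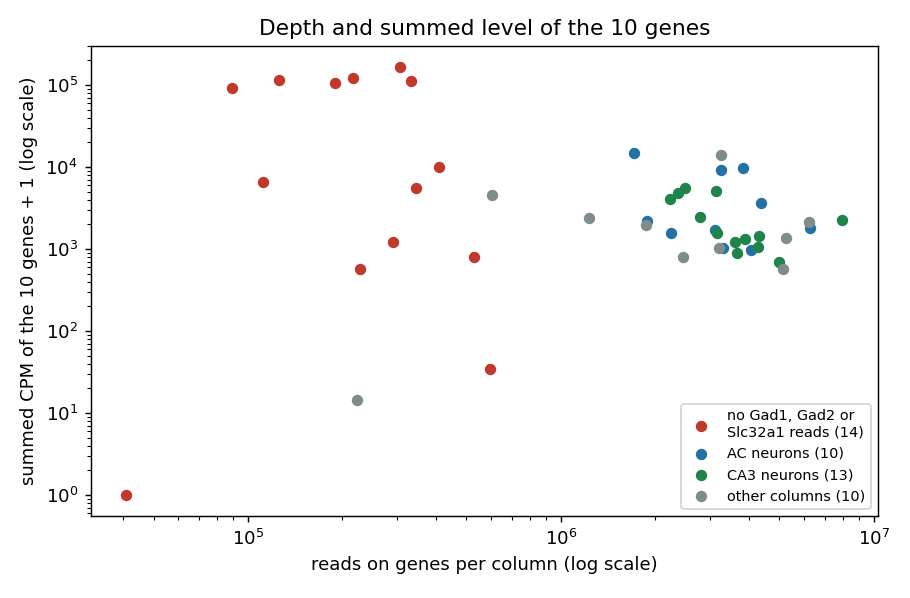
Reads on genes per column (log scale) against the summed level of the 10 genes + 1 (CPM, log scale), with 1 point per column. All 14 columns without Gad1, Gad2 and Slc32a1 reads lie to the left of the 23 neuron columns, and among the 14 the sums run from 0 CPM (N52) to 164918 CPM (N22).

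The Spearman correlation of total reads with the summed CPM was negative in both sets, -0.14 over the 14 columns and -0.46 over the 23 neuron columns. Among the columns outside the sets, the CA1 column N1 had 543 CPM of Apoe, 517 of Aldoc, 294 of Gja1 and 284 of Slc1a2, and N9 and N48, the columns just above 0 reads on Gad1, Gad2 and Slc32a1, had 13.5 and 569 CPM of the 10 genes together.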

How the data were processed

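The deposited file, made by the authors, is 1 table of raw read counts for 22800 gene symbols in 47 columns of 1 cell each. Per the methods, Trimmomatic and Flexbar were used for trimming, STAR for alignment to Ensembl GRCm38 and HTSeq for counting (featureCounts in the submitters' processing notes), with an average taken where several identifiers shared a symbol. Whether strand was used is not given in the sources used here.

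Here the level of a gene is CPM, its counts per 1000000 reads on all genes of the column, and differences are of mean log2(CPM + 1). Each set of columns is 1 sample, so no test was made. Exact Poisson 95% intervals cover the counting error of reads only. Exact Clopper-Pearson 95% intervals of shares take columns as independent draws, although no mouse is named for them. Columns held 40934 to 7949918 reads, and all were mapped to samples by title. The 10 AC and 13 CA3 neuron columns are those an earlier analysis had matched to the study's heat maps, and this match was not repeated. The members, marker lists and sets were chosen with earlier results of these data known. The 10 members, 9 relatives, marker genes and the genes most like the members by Spearman correlation (genes with a read in at least 10 columns) were named, except a few whose values are not reported here. Plpp3 is in the table under its older symbol Ppap2b. N4 and N4X correlated at 0.9998 with a chi-square per degree of freedom of 2.20, against at most 0.977 and at least 37.0 in 399 other pairs of one region, and were counted as 1.

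Alternatives were other pseudocounts (10 and 0.1), TMM factors of edgeR 4.0.16, poscounts size factors of DESeq2 1.42.0, totals without mitochondrial genes, summed CPM, medians, at least 1000 genes, the same region, all GABAergic columns of a region, no NPY-negative column, thinning, no filter, 10 reads for detection, and each column left out. Leaving out N49, N50 and N52, or N4 and N46 (AC) and N27 and N28 (CA3), was chosen after the data were seen. Coordinates came from GENCODE vM21, and promoters from the RefSeq table of GRCm38.p6, which matched 9 of the 10 members (all but Clu). On simulated data 197 of 200 changed genes were recovered among 3011 (AC) and 199 of 200 among 5149 (CA3). This checks the calculation only and does not vouch for the differences of the members. Recovery of genes as low in the neurons, or as widely spread over columns, as several members was not tested. R 4.3.3, Python 3.11.15, numpy 2.4.6, pandas 2.3.3, scipy 1.17.1 and matplotlib 3.10.9 were used.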

Additional observations from a re-analysis of the deposited data

Results flagged for a closer look

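In the 10 AC neuron columns, on the log2(CPM + 1) scale, the gap of N46 to its nearest neighbour exceeded the limit set for a group of 10 in 2 of the members. Gja1 was at 486 CPM in N46, high above the 9 other columns, and Clu was at 0 CPM in the same column, below all of them. For values with a normal spread, about 1 group in 20 is picked out in this way by chance. The rate for a gene at 0 in most columns, such as Gja1 here, was not measured. N46 also held 4673 CPM of microglia genes, and the part of this in either value was not tested.

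Glul was read in 3 AC columns outside the compared sets above its highest level in the 23 neuron columns, 331 CPM in N4: 597 CPM in N47, 568 CPM in N48 and 1953 CPM in N51. Teddm2, which overlaps Glul on the opposite strand, was at 176, 184 and 579 CPM in these columns. The part of Teddm2 in these values was not tested.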

How the results depend on the processing

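The median over the 10 genes was above 0 against both neuron sets under all alternatives but the AC columns alone, where it was -0.23 with 2 members higher. With these 4 columns against AC, Apoe (-1.22), Slc1a3 (-0.34), Mt1 (-2.45) and Mt2 (-0.12) also turned. In the other alternatives it ran from 2.41 to 4.50 against AC, with 6 to 10 members higher, and from 2.44 to 4.93 against CA3, with 7 to 10. Leaving out 1 column at a time gave medians of 2.52 to 3.49 (7 to 8 members) against AC and 2.88 to 3.87 (7 members) against CA3. Clu turned against AC with summed CPM (2.66), with all AC columns that have GABAergic reads (0.23) and without N49, N50 and N52 (0.66). It turned against CA3 with summed CPM (3.14), the same region (0.27) and without N49, N50 and N52 (0.43). Of 320 differences of single members under alternatives, 29 turned in sign, 10 of them with a reported size of at least 1 and the other 19 in Cst3 or in Mt1 against CA3. Of 272 whose reported size was at least 1, another 15 fell below 1, among them Aldoc against AC with the same region (0.09), Slc1a2 against AC with the same region (0.16) or medians (0.28), and Gja1 with medians (0 against both). TMM and DESeq2 factors moved the median of all genes from -1.76 to -1.89 and -2.07 against AC, and from -2.56 to -2.73 and -2.78 against CA3. The number of columns with a read moved by over 1.5 times in 7 of 30 cases with thinning and in 3 with a limit of 10 reads. Depth limits the 14 columns most, where 3 reads are up to 73.3 CPM. No paired analysis was possible because no label pairs columns across the sets and no test was made.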
